A study of Mus musculus with 2 samples.

Results

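The 10 glutathione S-transferase genes described here, of 31053 genes in the deposited matrix, are Gsta1, Gsta2, Gsta3, Gsta4, Gstm1, Gstm3, Gsto1, Gstp1, Mgst1 and Mgst3. They were selected on measured values: the genes and the split by cell class and barcode suffix were proposed after levels in these data had been seen, so their levels and ratios are given as descriptions with no test. The study cultured mouse small intestinal organoids, which are epithelial cultures grown from crypts, as control or with melatonin, and collected them on culture day 3. Cells of 3 independent organoid lines were pooled in each of the 2 libraries, and transcripts were counted by droplet 3′ sequencing (10x Chromium v3), in which each unique molecular identifier (UMI) stands for 1 captured transcript. The labels name no mouse strain, genotype, age or melatonin dose, and no cell can be traced to its line.

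The matrices deposited for the control and melatonin samples were identical, value for value. Each holds barcodes with suffix 1 and barcodes with suffix 2, and neither the labels nor the file headers tie a suffix to a treatment. The matrix was therefore treated as 1 sample, suffix 1 and suffix 2 were set side by side, and no ratio below has a direction with respect to melatonin. Barcodes were kept where they had 500 or more genes and 1000 or more UMIs, of which no more than 20% mitochondrial. This left 2300 of 12364 barcodes (18.6%) with suffix 1 and 1766 of 9442 (18.7%) with suffix 2. They held 61628537 and 51111519 UMIs, with medians of 29872 and 28759 UMIs per cell. A barcode sequence occurred with both suffixes 29 times before these limits, and 7 kept cells carried such a sequence. The lists of epithelial markers used for gating were detected in full in both suffixes, while immune markers summed to 1.59 and 1.11 CPM (UMIs per 1000000 UMIs), with Ptprc at 0 in both, and mesenchymal markers to 0.211 and 0.137, with Col3a1, Dcn and Lum at 0 in both.

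Glutathione S-transferases join the tripeptide glutathione to electrophiles such as xenobiotics and lipid peroxidation products, so that these can be exported. The soluble enzymes fall into classes by sequence, among them alpha (Gsta genes), mu (Gstm), omega (Gsto) and pi (Gstp), while Mgst1 and Mgst3 belong to a separate family of membrane proteins, MAPEG. In the small intestine they are part of first-pass detoxification in absorptive enterocytes, and several alpha and mu genes are known targets of the transcription factor NRF2 (Nfe2l2), which binds antioxidant response elements.

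The promoters of Gsta1, Gsta2 and Gsta3 are shown because Gsta1 and Gsta2 are near-copies, whereas Gsta3 followed another pattern over cell classes, described below. The windows are the 250 bases before the RefSeq start (build GRCm38.p6), 5′ to 3′ in the gene's direction, and capitals mark a match to the NRF2 site core TGACNNNGC on either strand.
Gsta1: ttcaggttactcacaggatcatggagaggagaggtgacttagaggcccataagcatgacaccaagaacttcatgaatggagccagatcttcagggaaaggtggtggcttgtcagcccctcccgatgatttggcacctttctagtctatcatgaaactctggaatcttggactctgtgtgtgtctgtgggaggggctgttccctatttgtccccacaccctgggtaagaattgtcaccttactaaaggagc
Gsta2: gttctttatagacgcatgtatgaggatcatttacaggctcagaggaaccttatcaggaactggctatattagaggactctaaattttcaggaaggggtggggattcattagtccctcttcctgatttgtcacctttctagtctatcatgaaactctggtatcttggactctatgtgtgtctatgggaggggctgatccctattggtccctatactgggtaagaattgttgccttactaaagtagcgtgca
Gsta3: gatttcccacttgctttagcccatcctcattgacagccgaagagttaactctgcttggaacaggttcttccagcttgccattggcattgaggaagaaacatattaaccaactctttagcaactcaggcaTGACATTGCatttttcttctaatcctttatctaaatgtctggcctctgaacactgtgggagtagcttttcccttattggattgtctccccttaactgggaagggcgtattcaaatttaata
The Gsta1 window lies at chr9:78230419-78230668 on the plus strand, the Gsta2 window at chr9:78347146-78347395 on the minus strand and the Gsta3 window at chr1:21240335-21240584 on the plus strand. Aligned over their length, the Gsta1 and Gsta2 windows were identical at 71.4% of columns, against 54.8% for Gsta1 and Gsta3. The Gsta3 match, TGACATTGC, began 121 bases before the start.

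Of the 9 members with a window in RefSeq's table, which are all but Gsta4, 2 held the core, Gsta3 and Mgst1. The Mgst1 match lay on the minus strand and began 56 bases before its first listed start, in a stretch at chr6:138140461-138140489 shown because it is the only other match among the members' windows.
Mgst1: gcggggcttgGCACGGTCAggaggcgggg
Of 32851 promoter windows of this length, 10.2% held the core, so a match is common and describes these letters only. The mu genes had none in their windows, and the first of 2 windows listed for Gstm1, the mu gene with the highest ratio between suffixes, is printed as an example, at chr3:108017974-108018223 on the minus strand.
Gstm1: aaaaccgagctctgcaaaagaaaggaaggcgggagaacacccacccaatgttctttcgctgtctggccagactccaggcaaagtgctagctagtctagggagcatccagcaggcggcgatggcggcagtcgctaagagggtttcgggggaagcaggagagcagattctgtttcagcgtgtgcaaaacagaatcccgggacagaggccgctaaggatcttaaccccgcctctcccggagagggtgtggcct

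By position the members form small families. In RefSeq's gene order Gsta4 and Gsta1 are neighbours on chromosome 9, with no coding gene between them, and Gsta2 follows Gsta1 after 4 coding genes. Gstm3 and Gstm1 lie on chromosome 3 with Gstm2 between them, and Gstp1 is next to Gstp2 on chromosome 19. Counting from 3′ ends cannot fully separate some of these copies. Over the last 500 bases of the GENCODE vM21 transcripts, 90.0% of 50-base windows of Gsta1 occurred also in Gsta2 or in Gm3776 or Gm10639, and 75.2% of those of Gstp1 occurred also in Gstp2 or its pseudogene. Gsta2 shared 51.0% of its windows, Gstm1 and Gstm3 shared 0.887%, and the other 5 members shared none. Values of Gsta1, Gsta2 and Gstp1 are therefore uncertain as to which copy they count. Whether reads that match more than 1 copy were left out, which would lower these values, was not examined.

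Cells were placed in classes by the summed UMIs of marker genes, none of which is a member. Limits were 150 marker UMIs per 10000 for enterocytes, 50 for enteroendocrine cells, 100 for goblet and Paneth cells and 20 for annexin-rich revival-like cells, each with at least 3 markers detected. Crypt-gated cells met none of these and had at least 5 stem and proliferation marker UMIs per 10000, and those with at least 10 proliferation UMIs were called cycling. These limits were set after the marker scores were seen, and a class is a range of a score: 188 cells lay within a factor of 2 of the enterocyte limit and 1212 within that factor of the cycling limit. In suffix 1 and suffix 2 the classes held 1356 and 694 cycling crypt cells, 284 and 471 low-cycling crypt cells, 107 and 170 enterocyte-gated cells and 277 and 270 enteroendocrine-gated cells. Another 33 and 17 cells were goblet- and Paneth-gated, and 15 and 20 were revival-gated. Levels are UMIs of the gene per 1000000 UMIs of the class (CPM), with exact Poisson 95% intervals that cover counting error only.

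The enterocyte-gated cells held the most glutathione S-transferase RNA and the enteroendocrine-gated cells the least. Summed over the 10 members, the level was 12059 CPM in suffix 1 and 16070 CPM in suffix 2 in enterocyte-gated cells. In cycling crypt cells the sum was 2860 and 5153 CPM, and in low-cycling crypt cells 3292 and 5622 CPM. In enteroendocrine-gated cells it was 614 and 677 CPM. Per cell, the middle of the distribution moved with the sum: the median cycling crypt cell had 2517 CPM of member UMIs in suffix 1, with quartiles of 1819 and 3355, and 4228 CPM in suffix 2, with quartiles of 2949 and 5847.

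**Figure D1:**
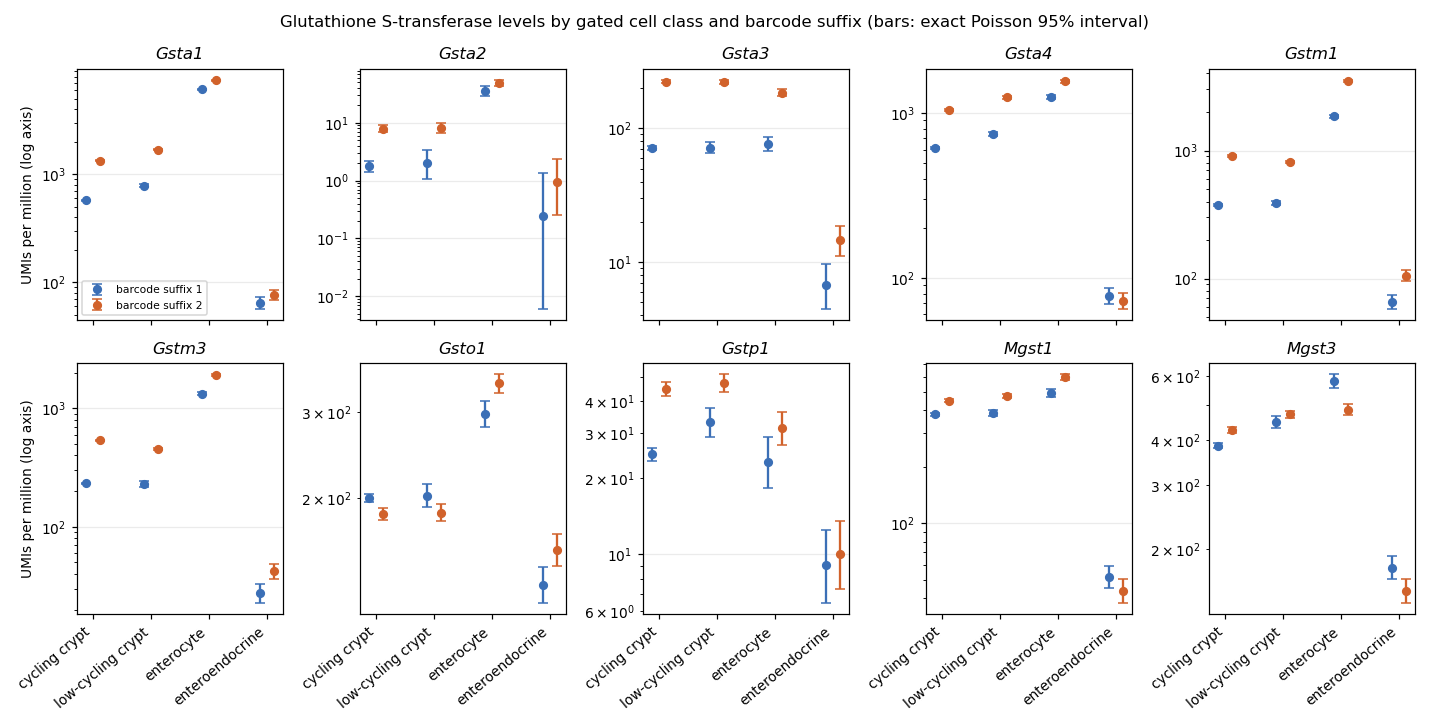
Levels of the 10 members in CPM (log axes, a separate scale for each gene) in 4 gated cell classes for barcode suffix 1 and suffix 2; bars are exact Poisson 95% intervals. Gsta1, Gsta2, Gstm1 and Gstm3 were highest in enterocyte-gated cells, the intervals of Gsta3 in crypt and enterocyte-gated cells overlapped in suffix 1 and not in suffix 2, and all 10 were lowest in enteroendocrine-gated cells.

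Among the alpha class, Gsta1 (ENSMUSG00000074183), a detoxifying transferase that also reduces lipid hydroperoxides, followed the absorptive classes most steeply among the members above 50 CPM. It stood at 575 CPM (568 to 582) in suffix 1 and 1332 CPM (1317 to 1346) in suffix 2 in cycling crypt cells. Low-cycling crypt cells had 787 and 1697 CPM. Enterocyte-gated cells had 6110 CPM (6026 to 6194) and 7411 CPM (7342 to 7480), and all of these cells carried a Gsta1 UMI. Enteroendocrine-gated cells had 64.3 and 76.4 CPM, so the 4 classes kept the same order in both suffixes with no interval shared between neighbours.

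Gsta2, the near-copy of Gsta1, was counted rarely. Its level was 1.76 CPM in suffix 1 and 7.88 CPM in suffix 2 in cycling crypt cells and 35.7 and 49.1 CPM in enterocyte-gated cells. It gave 1 UMI in suffix 1 and 4 UMIs in suffix 2 in enteroendocrine-gated cells. The levels of cycling and low-cycling crypt cells (1.99 and 8.26 CPM) did not differ beyond their intervals.

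Gsta3, an alpha enzyme known in mouse liver for conjugating activated aflatoxin, was not past 1.5-fold between crypt and enterocyte-gated cells in either suffix. In suffix 1 its level was 71.7 CPM (69.2 to 74.2) in cycling crypt cells, 71.8 CPM (65.4 to 78.6) in low-cycling crypt cells and 76.8 CPM (67.7 to 86.8) in enterocyte-gated cells, with all 3 intervals overlapping. In suffix 2 the same classes had 224 CPM (218 to 230), 222 CPM (214 to 230) and 185 CPM (174 to 196). The suffix 2 interval lay above the suffix 1 interval in each of these classes. Enteroendocrine-gated cells had 6.72 and 14.5 CPM. At an equal depth of 2000 UMIs per cell, 12.3% of cycling crypt cells in suffix 1 and 31.6% in suffix 2 had a Gsta3 UMI, against 1.34% and 2.49% of enteroendocrine-gated cells. This thinning left out 98 and 31 cycling cells and 3 and 4 enteroendocrine-gated cells as too shallow. Without thinning the shares were 71.6% and 87.6% of cycling cells and 7.22% and 13.7% of enteroendocrine-gated cells, whose median depths were 36014 and 37903 against 14287 and 14757 UMIs.

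Gsta4, which conjugates 4-hydroxynonenal, a product of lipid peroxidation, differed less between crypt and enterocyte-gated cells than Gsta1 did. Cycling crypt cells had 613 CPM (606 to 621) in suffix 1 and 1046 CPM (1033 to 1059) in suffix 2. Low-cycling crypt cells had 742 and 1242 CPM and enterocyte-gated cells 1254 and 1552 CPM. Its enteroendocrine level was 77.5 and 72.9 CPM, with overlapping intervals, so the suffixes were apart in the crypt and enterocyte classes and not in enteroendocrine-gated cells.

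The mu class enzymes Gstm1 and Gstm3, which conjugate a broad range of electrophiles, were highest in enterocyte-gated cells and stood apart between suffixes in all 4 classes. Gstm1 was at 377 CPM (372 to 383) in suffix 1 and 904 CPM (892 to 916) in suffix 2 in cycling crypt cells. It reached 1857 CPM (1811 to 1904) and 3508 CPM (3460 to 3556) in enterocyte-gated cells. Low-cycling crypt cells had 390 and 819 CPM, and enteroendocrine-gated cells 65.7 and 106 CPM. Gstm3 had 232 and 535 CPM in cycling crypt cells, 229 and 453 CPM in low-cycling crypt cells, 1333 and 1907 CPM in enterocyte-gated cells and 27.6 and 42.2 CPM in enteroendocrine-gated cells. In suffix 1 neither mu gene differed between the cycling and low-cycling crypt classes beyond the intervals, and in suffix 2 both were lower in the low-cycling class.

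The omega enzyme Gsto1, a thioltransferase and dehydroascorbate reductase, was the member that differed least between suffixes over all kept cells. Its cycling crypt level was 200.4 CPM (196 to 205) in suffix 1 and 186 CPM (181 to 191) in suffix 2. Low-cycling crypt cells had 203 and 187 CPM, enterocyte-gated cells 298 and 344 CPM, and enteroendocrine-gated cells 133 and 157 CPM.

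Gstp1, the pi enzyme, had 24.8 CPM (23.4 to 26.3) in suffix 1 and 44.8 CPM (42.1 to 47.5) in suffix 2 in cycling crypt cells. Low-cycling crypt cells had 33.1 and 47.4 CPM, enterocyte-gated cells 23.1 and 31.4 CPM, and enteroendocrine-gated cells 9.12 and 10.1 CPM. Its near-copy Gstp2 had 7.61 and 13.6 CPM in cycling crypt cells, so both copies were higher in suffix 2 there, and their reads cannot be fully told apart.

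The membrane enzymes Mgst1, found in the endoplasmic reticulum and outer mitochondrial membrane, and Mgst3 were not past 1.5-fold between crypt and enterocyte-gated cells, except for Mgst3 in suffix 1 with no mitochondrial limit, and were lower in enteroendocrine-gated cells. Mgst1 was at 378 and 447 CPM in cycling crypt cells, 386 and 476 CPM in low-cycling crypt cells and 489.6 and 599 CPM in enterocyte-gated cells. In enteroendocrine-gated cells it was at 52.1 and 43.8 CPM. Mgst3 was at 386 and 427 CPM, 449 and 471 CPM, 582 and 485 CPM, and 178 and 153 CPM in the same classes. Mgst3 was thus higher in suffix 2 in cycling crypt cells and lower in suffix 2 in enterocyte-gated cells, each beyond the intervals. With no mitochondrial limit the cycling crypt log2 ratio of Mgst3 turned from 0.145 to -0.015.

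The first comparison set suffix 2 over suffix 1 over all kept cells. A gene was counted as higher or lower where the ratio, on log2(CPM + 1), reached 1.5-fold and the mean of both groups was at least 10 CPM. A gene under 10 CPM in 1 group can reach that mean only through the group where it is high, so its call is a description. Of the 9 members at that level, 6 were higher in suffix 2 and 0 lower, where 2.32% of 7357 genes were higher and 0.843% lower. The levels chose the members, so nothing is read from this count. Gsta3 went from 69.1 to 196 CPM, a 2.83-fold ratio (2.73 to 2.94), Gstm1 from 442 to 1107 CPM, 2.51-fold (2.47 to 2.54), and Gsta1 from 917 to 2074 CPM, 2.26-fold (2.24 to 2.29). Gstm3 stood at 2.23-fold, Gsta4 at 1.69-fold and Gstp1 at 1.65-fold. With a pseudocount of 10 CPM Gstp1, at a log2 ratio of 0.55, was no longer past the fold and the count was 5. Mgst1 was at 1.20-fold, Mgst3 at 1.09-fold and Gsto1 at 1.02-fold (0.996 to 1.05), none past the fold. Gsta2 was at 2.79-fold (2.43 to 3.21) but its mean was under 10 CPM, and its log2 ratio of 1.31 was 0.65 with a pseudocount of 10 CPM. The median log2 ratio was 0.75 over the 9 members and 0.05 over all genes.

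The same ratio was also taken within classes, since enterocyte-gated cells made up 4.65% of kept cells in suffix 1 and 9.63% in suffix 2. In cycling crypt cells the same 6 members were higher and 0 lower, against 1.40% and 0.974% of 7084 genes. There Gsta3 was 3.13-fold higher (2.99 to 3.27), Gstm1 2.40-fold (2.35 to 2.44), Gsta1 2.32-fold (2.28 to 2.35), Gstm3 2.31-fold, Gstp1 1.80-fold and Gsta4 1.71-fold. The ratio of Gsto1 in these cells was 0.928 (0.895 to 0.962). In low-cycling crypt cells 5 members were higher and 0 lower, against 1.76% and 1.48% of 6890 genes, with Gsta3 at 3.09-fold and Gstp1, at 1.43-fold (1.22 to 1.68), short of the fold. With no mitochondrial limit, where its log2 ratio was 0.95 against 0.50, and with a limit of 10%, Gstp1 passed the fold and the count was 6.

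In enterocyte-gated cells Gsta3, at 2.40-fold (2.09 to 2.76), and Gstm1, at 1.89-fold (1.84 to 1.94), were past the fold among all 10 members, and 0 were lower, against 2.04% higher and 2.80% lower of 6606 genes. The count was 3 in 2 alternatives: Gstm3 passed the fold, at a log2 ratio of 0.76, with lowered gate limits, and Gsta2, at 0.64, without its 3 top cells of each suffix. Gsta1, at 1.21-fold (1.19 to 1.23), and Gsta4, at 1.24-fold (1.19 to 1.28), were not. In enteroendocrine-gated cells Gsta3, Gstm1 and Gstm3 were past the fold, at 2.16-fold (1.36 to 3.51), 1.61-fold (1.38 to 1.88) and 1.53-fold (1.20 to 1.95), with 0 of 8 members lower, against 1.72% and 4.16% of 8314 genes. Gsta3, at 6.72 CPM in suffix 1 and 14.5 CPM in suffix 2, reached the 10 CPM mean only through suffix 2. Without the 3 cells of each suffix with most UMIs of the member, or without the cells with the top 5% of doublet scores, 0 members were counted as higher; Gsta3 was still past the fold there, but its mean was under 10 CPM. Over the 11 alternatives the log2 ratios lay between 0.55 and 1.58 for Gsta3, 0.52 and 0.85 for Gstm1 and 0.42 and 0.76 for Gstm3. Gsta1, at a log2 ratio of 0.25 and not past the fold, was past it at 0.70 with the gate limits doubled.

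**Figure D2:**
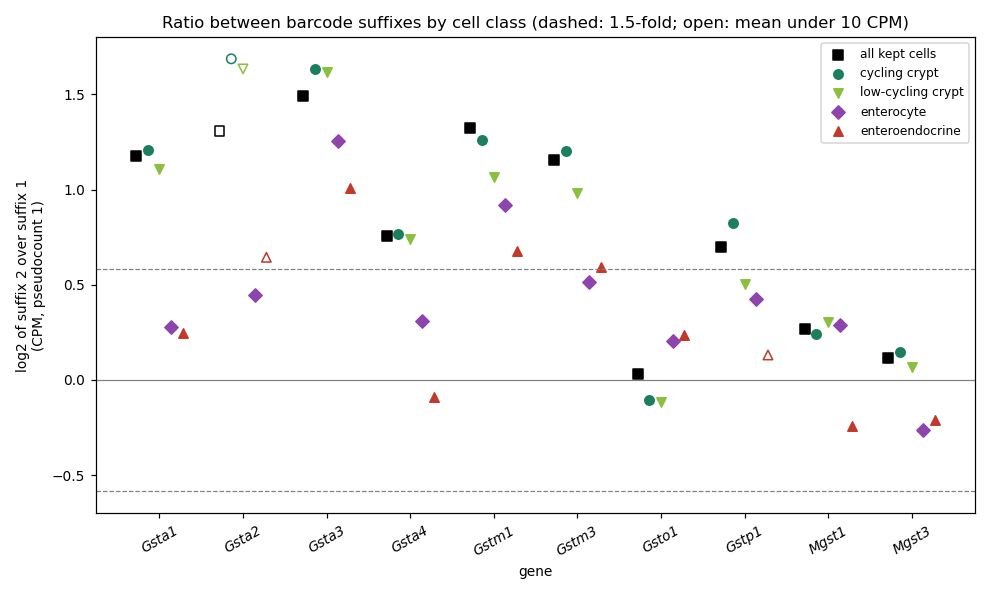
Log2 ratio of suffix 2 over suffix 1 (CPM with a pseudocount of 1) for each member in all kept cells and in 4 gated classes; dashed lines mark 1.5-fold, and open symbols are genes whose mean was under 10 CPM. Gsta3 and Gstm1 were above the upper line in every class, Gsta1, Gsta4 and Gstm3 in both crypt classes, and Gsto1, Mgst1 and Mgst3 in none.

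Enterocyte-gated cells were then set over crypt-gated cells within each suffix. Their median mitochondrial share was 13.5% and 14.3%, against 9.21% and 9.06% in cycling and 10.1% and 9.09% in low-cycling crypt cells, and its part in the ratios was not tested. Gsta1 was 10.2-fold higher (9.97 to 10.3) in suffix 1 and 5.07-fold (5.01 to 5.14) in suffix 2. Gsta2 was 19.9-fold (15.1 to 26.5) and 6.12-fold (5.19 to 7.21) higher, Gstm1 4.90-fold and 4.01-fold, and Gstm3 5.76-fold and 3.77-fold. Gsta4 was 1.99-fold higher in suffix 1 and 1.39-fold, not past the fold, in suffix 2, while Gsto1 was at 1.48-fold, not past it, and 1.84-fold. Gsta2 reached the 10 CPM mean only through enterocyte-gated cells, where it is high, and its suffix 1 ratio rests on a crypt level of 1.79 CPM: the log2 ratio was 3.72 with a pseudocount of 1 CPM and 1.96 with 10 CPM, against 2.47 and 1.71 in suffix 2. In each suffix 5 of 10 members were higher and 0 lower, or 4 where only genes at 50 CPM or more were counted, against 20.8% higher and 29.3% lower of 6966 genes in suffix 1 and 20.7% and 30.8% of 7102 genes in suffix 2. Gsta3 stood at 1.07-fold (0.940 to 1.22) and 0.826-fold (0.774 to 0.879), and Gstp1 at 0.893-fold and 0.687-fold. The levels chose the members, so nothing is read from these counts. With no mitochondrial limit the suffix 1 count was 7, as Mgst3, at a log2 ratio of 0.64, and Gsto1, at 0.77, passed the fold. In suffix 2 the call on Gstp1 depended on the setting: it counted as at least 1.5-fold lower without its 3 top cells of each suffix and with the gate limits doubled. For Gsta1 the crypt level was 602 CPM in suffix 1 and 1460 CPM in suffix 2, so the smaller ratio in suffix 2 went with a higher crypt level; the difference between the ratios was not tested.

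Enteroendocrine-gated over crypt-gated cells was a comparison added after the levels had been seen. The median mitochondrial share of enteroendocrine-gated cells was 7.19% and 6.71%, and its part in the ratios was not tested. In suffix 1 all 9 members at 10 CPM or more were lower and 0 higher, against 18.1% lower and 44.9% higher of 8088 genes. In suffix 2 it was 8 of 9 lower and 0 higher, against 20.7% and 41.0% of 8046 genes, with Gsto1, 1.19-fold lower, short of the fold. In suffix 1 Gsta3, at 6.72 CPM, and Gstp1, at 9.12 CPM, were under 10 CPM in enteroendocrine-gated cells and reached that mean only through the crypt cells, where they are high. Where only genes at 50 CPM or more were counted, 7 were lower in each suffix, and nothing is read from these counts. The median of all genes moved by 0.45 and 0.34 on the log2 scale in these comparisons, and the members' median was -2.84 and -3.35. Gsta1 was 9.36-fold lower (8.30 to 10.6) in suffix 1 and 19.1-fold lower (17.1 to 21.4) in suffix 2, and Gsta3 10.7-fold and 15.4-fold lower. The log2 ratio of Gsta3, -3.24 in suffix 1 and -3.85 in suffix 2, lay between -3.83 with the gate limits doubled and -2.29 with a pseudocount of 10 CPM in suffix 1, and between -4.41 and -3.22 in suffix 2. Gsto1, at -0.59 in suffix 1, was short of the fold in 4 alternatives, with a log2 ratio of -0.34 with no mitochondrial limit. Mgst3 was 2.22-fold and 2.88-fold lower. Of genes of enterocytes, the fatty acid carrier Fabp1 had 82.1 and 67.8 CPM in enteroendocrine-gated cells, against 21274 and 19531 CPM in enterocyte-gated cells. The brush border enzyme Sis had 535.5 and 359 CPM, against 1596 and 1564 CPM. The source of these UMIs, and their part in the members' enteroendocrine levels, was not tested. The 3 cells with most Gsta1 UMIs held 25.4% and 31.9% of the class's Gsta1 UMIs.

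The theta gene Gstt1, no member but of the same superfamily, was higher in enteroendocrine-gated than in crypt-gated cells. Of 10 other family genes at 10 CPM or more in that comparison, 2 were higher in each suffix, Gstt1 and Gstz1, and 4 and 5 lower, where 44.9% and 41.0% of all genes were higher and 18.1% and 20.7% lower. The level of Gstt1 was 976 CPM in suffix 1 and 685 CPM (659.9 to 709.8) in suffix 2 in enteroendocrine-gated cells and 34.6 and 37.7 CPM in crypt-gated cells, a ratio of 28.2-fold and 18.1-fold. Enterocyte-gated cells had 64.5 and 62.9 CPM, also higher than crypt-gated cells. Within enteroendocrine-gated cells it was 1.42-fold lower in suffix 2 (1.36 to 1.49), short of the fold.

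To follow the members along the enterocyte-marker score, cells outside the enteroendocrine, goblet and Paneth, and revival gates with at least 2000 UMIs were ordered by their enterocyte-marker UMIs per 10000. Gsta1 climbed through every step: 192, 386, 669, 1454 and 6120 CPM in suffix 1 for scores of 0 to 10, 10 to 20, 20 to 50, 50 to 150 and above. The last step starts at the limit of the enterocyte gate and is not independent of it. In suffix 2 it had 965, 1368, 2082, 3334 and 7410 CPM. As a ratio, the suffixes were thus furthest apart at the lowest score and closest at the highest. Gstm1 went from 240.3 to 1858 CPM in suffix 1 and from 665 to 3506 CPM in suffix 2, and Gstm3 from 109 to 1334 CPM and from 279 to 1905 CPM.

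Gsta3 and Gstp1 did not climb. Gsta3 was at 92.1 CPM (76.5 to 109.9) at the lowest score and 76.7 CPM (67.6 to 86.8) at the highest in suffix 1, and at 270.3 CPM (261 to 280.4) and 184 CPM (173 to 195) in suffix 2, where the intervals did not overlap. Gstp1 fell from 54.6 CPM (50.3 to 59.2) to 31.2 CPM (26.9 to 36.1) in suffix 2, and in suffix 1 it had 33.7 and 22.9 CPM with overlapping intervals. Gsto1 stayed between 181 and 230.4 CPM over the first 4 steps in both suffixes and had 297 and 344 CPM at the last. The first step held 63 cells in suffix 1 and 342 in suffix 2. Crypt-gated cells also scored lower on enterocyte markers in suffix 2, with a median of 13.1 against 23.2 marker UMIs per 10000 in cycling cells, and Sis was at 87.8 against 187 CPM there. Fabp1 was at 331 CPM in suffix 2 and 329 CPM in suffix 1 in cycling cells, with overlapping intervals, and at 370 CPM (360 to 380.4) and 529 CPM (512 to 547) in low-cycling cells. The part of these markers in the members' suffix ratios was not tested.

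**Figure D3:**
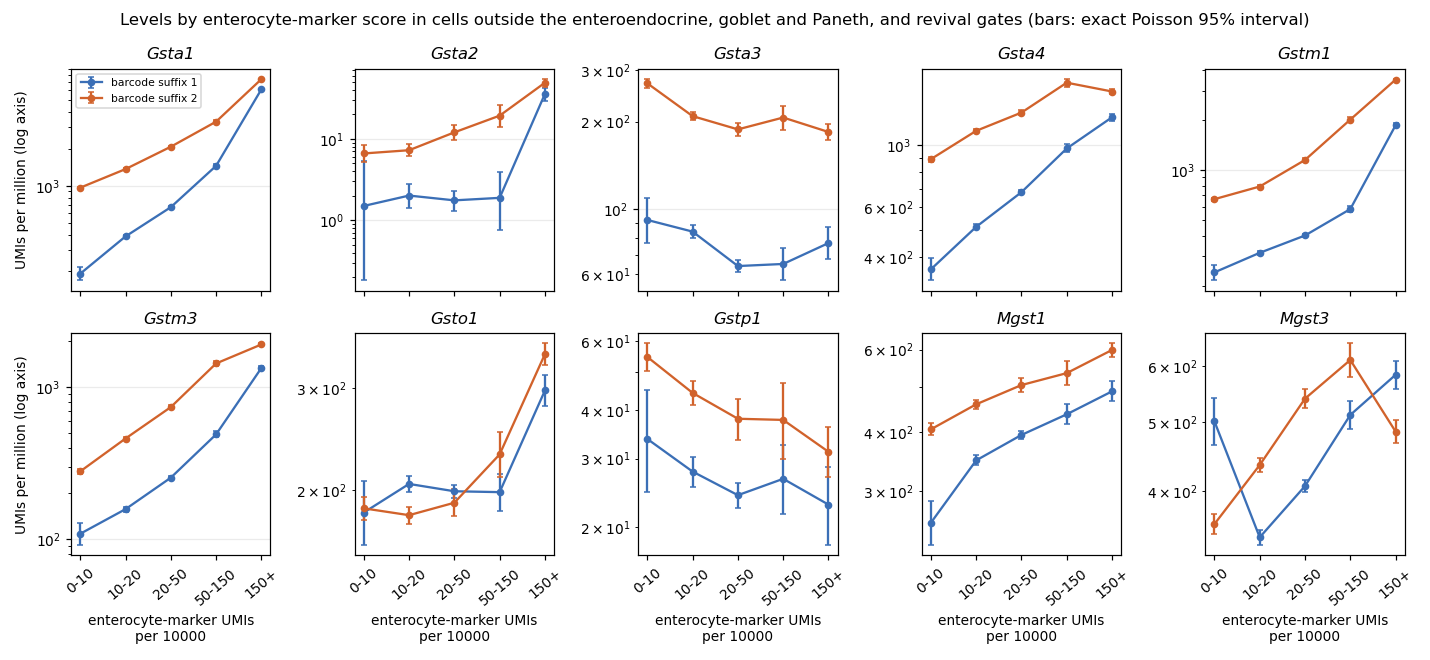
Levels in CPM (log axes) of each member in 5 ranges of the enterocyte-marker score, for cells of barcode suffix 1 and suffix 2 outside the enteroendocrine, goblet and Paneth, and revival gates; bars are exact Poisson 95% intervals. Gsta1, Gstm1 and Gstm3 climbed with the score in both suffixes, whereas Gsta3 and Gstp1 were highest at the lowest score.

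The rarer classes held too few cells for a ratio. In revival-gated cells Gsta1 was at 3616 CPM in suffix 1 (15 cells) and 1680 CPM in suffix 2 (20 cells), Gsta4 at 1847 and 1119 CPM and Gsto1 at 1132 and 621 CPM. These levels rested on few cells, since the 3 cells with most UMIs held 91.0% and 43.3% of the Gsta1 UMIs and 79.0% and 57.2% of those of Gsto1. The median revival-gated cell had 799.7 and 693 CPM of Gsta1 and 224 and 333 CPM of Gsto1. Gstm3, in contrast, had only 12 and 31 UMIs in these cells, 28.0 and 28.8 CPM. In goblet- and Paneth-gated cells Gsta1 was at 181 and 393 CPM and Gstm3 at 34.1 and 58.4 CPM, both below the crypt levels of the same suffix.

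Across single cycling crypt cells, the neighbours Gsta1 and Gsta4 and the mu pair varied together most. Over cycling crypt cells thinned to 10000 UMIs (1168 cells of suffix 1 and 609 of suffix 2, with 188 and 85 too shallow), the Spearman correlation of Gsta1 with Gsta4 was 0.578 and 0.659, and that of Gstm1 with Gstm3 was 0.454 and 0.668. The median over the 45 pairs, which include those of the sparse genes Gsta2 and Gstp1, was 0.0695 and 0.0914. Gsta1 with Gstm3 stood at 0.327 and 0.503. Gsta3 with Gstm1 was at 0.158 and 0.403, and with its own class member Gsta1 at 0.0572 and 0.225. Gsta3 was sparser in suffix 1, with a mean of 0.682 UMIs per thinned cell against 2.03 in suffix 2. The part of this in its lower values there was not tested. Gsta2, with a mean of 0.0214 and 0.0706 UMIs per thinned cell, and Gstp1, with 0.223 and 0.430, were too sparse at this depth for their correlations to be read. Gsto1 reached at most 0.0865 in suffix 1 and 0.0845 in suffix 2 with another member. Cells share a library and a depth, so these values describe the cells and carry no p-value, and without thinning the highest were 0.755 and 0.791. In enterocyte-gated cells (93 and 159) Gstm1 with Gstm3 was the highest pair, at 0.714 and 0.719, Gsta1 with Gsta4 was at 0.0402 and 0.245, and Gsta3 with Gstm1 was at 0.306 and 0.536.

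**Figure D4:**
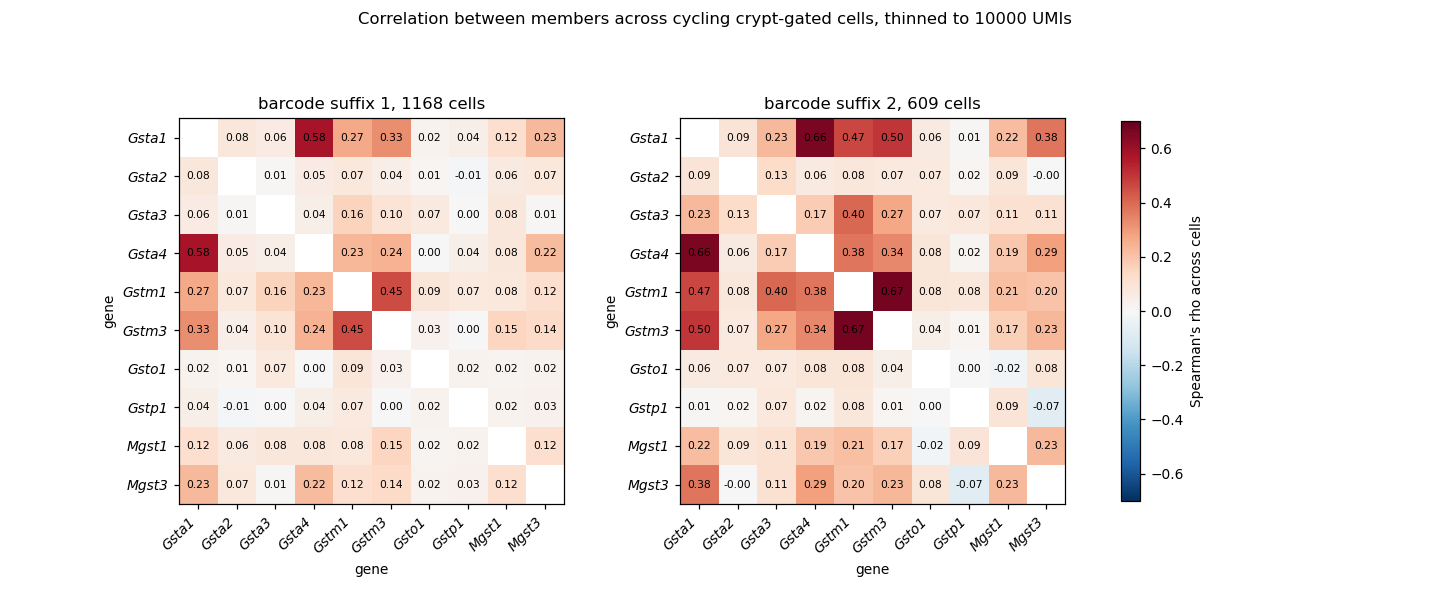
Spearman correlation between members across cycling crypt-gated cells thinned to 10000 UMIs, 1168 cells of suffix 1 and 609 of suffix 2; color and printed value give rho. Gsta1 with Gsta4 and Gstm1 with Gstm3 were the highest pairs in both suffixes, and values of the sparse genes Gsta2 and Gstp1 cannot be read as absence of a relation.

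Over 12 points, the 6 classes in both suffixes, the genes whose log2(CPM + 1) was most like a member's were named among 7357 genes. The points share cells' depth and gates, so the Pearson values only rank likeness. Those of the goblet and Paneth gate rest on 33 and 17 cells and those of the revival gate on 15 and 20, too few for a ratio. For Gsta1 they were Acp5 (0.974), Dsc2 (0.969) and Timm8b (0.964), and for Gsta4 Dsc2, Rer1 and Ppfibp2. For Gstm1 they were Cryl1 (0.978), Gstm3 (0.977) and Hdhd3 (0.974), and for Gstm3 the carboxylesterase Ces2a (0.982), the glucuronosyltransferase Ugt2b5 (0.979) and Gstm1. Gsta3 was closest to Gsta4 (0.944), the mitochondrial protease Oma1 (0.936) and Pgd (0.930), a pentose phosphate enzyme that yields NADPH. For Gsto1 they were Entpd2, Ahnak and the conjugate exporter Abcc3 (0.967), and for Gstp1 Mpv17l2, Taf12 and Sh2d4a. Mgst1 and Mgst3 were like each other (0.963) and like subunits of the respiratory chain and ATP synthase, Ndufa10 and Ndufab1 for Mgst1 and Atp5o and Ndufa5 for Mgst3.

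Of 19 other genes of the transferase and MAPEG families in the matrix, 12 reached 10 CPM over all kept cells. Among these 3 were at least 1.5-fold higher in suffix 2 and 0 lower, against 2.32% and 0.843% of all genes: Mgst2, at 110.1 and 204 CPM, Gstm2, at 40.7 and 63.6 CPM, and Gstp2, at 7.95 and 13.9 CPM, which reached the 10 CPM mean only through suffix 2. Gstm4, Gstm5, Gstm6, Gstm7, Gstp3, Gstt1, Gstt2, Gstt3 and Gstz1 were past neither limit, with levels from 10.4 and 12.9 CPM for Gstm4 to 104 and 94.3 CPM for Gstt1, and the median log2 ratio of the 12 was 0.11. Gstk1, at 7.69 and 10.5 CPM, had a mean under 10 CPM. Gstm2, Gstp2 and Mgst2 were also past the fold in both crypt classes, 3 of 11 in each, against 1.40% and 1.76% of all genes. In enterocyte-gated cells 2 of 14 were, against 2.04%: Mgst2, at 394 and 675 CPM, and Gstk1, at 17.4 and 27.7 CPM. Enteroendocrine-gated cells had 0 of 9 higher and 0 lower, against 1.72% and 4.16% of all genes, with a median log2 ratio of -0.19. Over crypt cells, enterocyte-gated cells had 8 of 13 such genes higher in suffix 1 and 7 of 13 in suffix 2, with 0 lower in each, where 20.8% and 20.7% of all genes were higher and 29.3% and 30.8% lower. Among the higher genes Gstm4, at 8.60 and 7.86 CPM in crypt cells, reached the 10 CPM mean only through enterocyte-gated cells.

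Genes that make, recycle and export glutathione and its conjugates were counted from a list chosen with earlier results of these data known. Of 16 at 10 CPM or more over all kept cells, 4 were higher in suffix 2 and 0 lower, against 2.32% and 0.843% of all genes: Slc7a11, the cystine importer, at 9.54 and 19.6 CPM and so past the 10 CPM mean only through suffix 2, Gss, glutathione synthetase, at 46.4 and 73.2 CPM, Gpx2, the epithelial glutathione peroxidase, at 524 and 939.7 CPM, and Abcc2, an apical conjugate exporter, at 69.6 and 142 CPM. In cycling crypt cells Gclm, a subunit of the rate-limiting enzyme of glutathione synthesis, and Abcc3 were also past the fold, for 6 of 16, against 1.40% of all genes. Low-cycling crypt cells had 3 of 15 higher, Slc7a11, Gpx2 and Abcc2, against 1.76%. Enterocyte-gated cells had 4 of 16 higher, Slc7a11, Gclc, Gpx2 and Abcc2, against 2.04%, and 1 lower, Ggt1, at 70.2 and 38.6 CPM, against 2.80%. Enteroendocrine-gated cells had 0 of 18 higher, against 1.72%, and 1 lower, Chac1, at 56.1 and 31.2 CPM, where 4.16% of all genes were lower, so that count is near the background.

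Along the absorptive gate genes of the list went both ways. In enterocyte-gated over crypt-gated cells Gpx2, Gclc and Gsr were lower in both suffixes, Gpx2 3.62-fold in suffix 1 and 3.33-fold in suffix 2 and Gclc, the catalytic subunit of the rate-limiting enzyme, 1.88-fold and 1.62-fold, and Gsr, glutathione reductase, 1.70-fold and 1.63-fold. Gclm was higher, 1.98-fold and 1.62-fold, as was Abcc2, 5.71-fold and 5.50-fold. Slc3a2, Ggt1, Gpx4, Glrx and Abcc3 were also higher in both suffixes, and Gpx1 in suffix 1. Ggt1 was at 0.311 and 0.428 CPM in crypt cells and passed the 10 CPM mean only through enterocyte-gated cells. Of the list, 8 of 15 genes were higher and 3 lower in suffix 1, and 7 of 16 higher and 3 lower in suffix 2, where 20.8% and 20.7% of all genes were higher and 29.3% and 30.8% lower. In enteroendocrine-gated over crypt-gated cells 6 of 18 were higher and 5 lower in suffix 1 and 5 of 20 higher and 9 lower in suffix 2, where 44.9% and 41.0% of all genes were higher and 18.1% and 20.7% lower. Slc3a2, Chac1, Abcc4 and Abcc5 were higher in both suffixes, Gclm and Abcc1 in suffix 1 and Gpx3 in suffix 2. Gss, Gsr, Chac2, Gpx1 and Abcc2 were lower in both, and Slc7a11, Gpx2, Glrx and Abcc3 in suffix 2.

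Of 11 known regulators of these genes, a list chosen in the same way, 10 reached 10 CPM over all kept cells, and Maff, a small MAF protein that pairs with NRF2, was the 1 past the fold, at 18.6 and 36.0 CPM, where 2.32% of all genes were higher. Nfe2l2 RNA was at 131 CPM in suffix 1 and 142 CPM in suffix 2, 1.08-fold (1.05 to 1.12). Within classes only Maff was past the fold, in cycling and low-cycling crypt cells, 1 of 9 and 1 of 8 regulators, against 1.40% and 1.76% of all genes. In cycling cells Maff, at 9.35 and 16.8 CPM, reached the 10 CPM mean only through suffix 2. Enterocyte-gated and enteroendocrine-gated cells had 0 of 11 and 0 of 8 higher, against 2.04% and 1.72%, and 0 lower, against 2.80% and 4.16%. In enterocyte-gated over crypt-gated cells 6 of 10 regulators were higher in suffix 1 and 7 of 11 in suffix 2, among them Nfe2l2, at 1.87-fold and 1.73-fold, and the xenobiotic receptors Nr1i2 and Nr1i3, with 0 lower, where 20.8% and 20.7% of all genes were higher. The others were Mafk, Maff and Ppara in both suffixes and Bach1 in suffix 2. Ppara, at 7.77 and 7.67 CPM in crypt cells, and Nr1i3 in suffix 2, at 7.08 CPM, reached the 10 CPM mean only through enterocyte-gated cells. Enteroendocrine-gated over crypt-gated cells had 4 of 8 regulators higher in each suffix, Bach1, Mafg, Mafk and Maff. There 44.9% and 41.0% of all genes were higher. In suffix 1 0 were lower, and in suffix 2 Nfe2l2 was, against 18.1% and 20.7% of all genes.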

How the data were processed

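Droplet 3′ RNA counts of mouse small intestinal organoid cells were analysed. Per the submitters' processing notes, bcl2fastq 2.20.0, Cell Ranger 3.1.0 and STAR 2.7.3a were used; the genome build is not given in the sources used here. The files deposited by the authors hold whole-number UMI counts per gene and barcode, and 3 of 3 kinds of file were identical between the 2 samples. The members and all gene lists were chosen with earlier results of these data known.

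Barcodes needed 500 genes, 1000 UMIs and a mitochondrial share no higher than 20%. Because both samples share 1 matrix and suffixes have no treatment label, no test, p-value or replicate error was computed: cells are not replicates. Counts were summed per class and suffix and given as CPM with exact Poisson 95% intervals; folds carry the exact conditional interval. A gene was called at 1.5-fold on log2(CPM + 1) with a mean of at least 10 CPM, and classes under 50 cells in a suffix gave no ratio. Shares of cells were computed at an equal depth of 2000 UMIs. Doublets were not removed; leaving out the top 5% of Scrublet scores in each suffix (203 cells) was an alternative. All members were given with values; other family genes at 10 CPM, genes of the glutathione list past the fold and, for each member at 10 CPM, the 3 genes most like it were named. The ratio and its interval were checked on simulated Poisson counts. These had no variation between cells, so the check covers counting error only. Python 3.11.15, numpy 2.4.6, scipy 1.17.1, pandas 2.3.3, scanpy 1.11.5 and Biopython 1.88 were used. Of 31053 gene identifiers, 30934 matched the reference names, all 10 members among them.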

Additional observations from a re-analysis of the deposited data

Results flagged for a closer look

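Barcodes left out for mitochondrial content also carried the members' RNA. Per 1000000 non-mitochondrial UMIs, barcodes with 20% to 50% mitochondrial UMIs held 3397 UMIs of the 10 members in suffix 1 and 5975 in suffix 2, and barcodes with over 50% held 2918 and 4695. The kept cells held 3681 and 6855 on the same scale. The sum was higher in suffix 2 in all 3 sets of barcodes, but not every member was. Mgst1 was at 406 and 367 in barcodes with 20% to 50% and at 342 and 217 in those with over 50%, and Mgst3 at 405 and 318 and at 358 and 214, lower in suffix 2 beyond the intervals. In kept cells both were higher in suffix 2, at 393 and 472 and at 429 and 465. These values were singled out because the kept-cell levels leave these barcodes out; they enter only where no mitochondrial limit is set.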

How the results depend on the processing

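Over 12 alternatives (mitochondrial limits, a stricter depth limit, per-cell means, pseudocounts, left-out cells, doublet scores, a higher level limit and other gate limits), 0 of 515 values of the 49 single-gene ratios past 1.5-fold reversed, and 200 of 206 counts of members stayed within 1.5 times. Among the 200 were counts of 0 that stayed 0, for which staying within 1.5 times says little. The counts that moved further were these. The 3 members higher in suffix 2 in enteroendocrine-gated cells became 1 with a pseudocount of 10 CPM, 1 when only genes at 50 CPM or more were counted, 0 without the 3 cells of each suffix with most UMIs of the member and 0 without the top 5% of Scrublet scores. The 0 members lower in enterocyte-gated over crypt-gated cells of suffix 2 became 1 without those top cells and 1 with the gate limits doubled. Why was not tested. With a mitochondrial limit of 10%, 18 and 21 enterocyte-gated cells remained, too few for a ratio. No paired analysis was possible because no label assigns cells to replicates. With 1 matrix, intervals cover counting error only; the spread between organoid lines or libraries is unknown, and the treatment of each suffix cannot be told apart from these files.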
